A study of Homo sapiens with 6 samples.

Results

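The genes described here encode the transcription factors that switch on lipid and sterol synthesis in hepatocytes, together with the proteins that pair with them or control them. They are MLXIPL, MLX, MLXIP and TXNIP of the glucose-sensing branch, NR1H3 and NR1H2 of the oxysterol-sensing branch, and SREBF1, SREBF2, SCAP and INSIG2 of the sterol-sensing branch. The 10 genes were chosen by symbol, each matched to 1 Ensembl gene, out of 60240 in the table. All 10 were expressed well above the lowest value and entered the test. They were measured in HepG2, a human hepatocellular carcinoma cell line, in 3 control libraries and in 3 libraries from cultures given 100 ng/ml recombinant GDF11 for 24 h. GDF11 is a secreted ligand of the TGF-beta family. Both groups grew in high-glucose medium with fetal bovine serum, and the labels name no vehicle for the controls. The labels call the replicates biological.

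ChREBP (the product of MLXIPL) and MondoA (MLXIP) sense glucose metabolites and bind DNA only as dimers with MLX. TXNIP, an arrestin-like protein that limits glucose uptake, is a classical target of both. The liver X receptors LXR-alpha (NR1H3) and LXR-beta (NR1H2) are activated by oxysterols and bind DNA with RXR. SREBP-1 and SREBP-2 (SREBF1 and SREBF2) are made as membrane proteins. SCAP escorts them from the endoplasmic reticulum to the Golgi, where proteases release the active factor, and INSIG proteins hold SCAP back when sterols are plentiful. RNA levels alone do not show how much active factor a cell held, and gene-level values do not separate isoforms such as those of SREBP-1 or ChREBP.

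The promoter windows show which known control letters lie before the start sites that have a window. RefSeq windows of 250 bases before the start site (GRCh38.p14) were found for all 10 genes, 15 windows in all, and both strands were searched. The 2 genes that fell, MLXIPL and NR1H3, are shown with the letters found in the window printed. Other windows of NR1H3, not printed, held GGGCGG or its reverse complement and the NF-Y letters CCAAT in reverse complement. SREBF2 and TXNIP are shown because, in the windows searched, they alone held the sterol and the paired glucose-response letters. Capitals mark GGGCGG or its reverse complement in MLXIPL, AGGTCA in NR1H3, TCACNCCAC in SREBF2 and, in TXNIP, 2 copies of CACGNG with 5 bases between them. The windows are chr7:73624523-73624772 (minus strand), chr11:47248050-47248299 (plus strand, 1 of the 4 windows of NR1H3), chr22:41832855-41833104 (plus strand) and chr1:145996580-145996829 (minus strand). The MLXIPL window lies inside the span of the gene, before an internal start site. Start sites without a window, in any of these genes, were not searched.
MLXIPL: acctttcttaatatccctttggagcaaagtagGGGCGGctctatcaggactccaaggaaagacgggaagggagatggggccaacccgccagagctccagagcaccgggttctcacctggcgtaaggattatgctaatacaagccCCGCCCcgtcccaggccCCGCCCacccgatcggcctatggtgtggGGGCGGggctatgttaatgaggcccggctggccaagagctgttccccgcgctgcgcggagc
NR1H3: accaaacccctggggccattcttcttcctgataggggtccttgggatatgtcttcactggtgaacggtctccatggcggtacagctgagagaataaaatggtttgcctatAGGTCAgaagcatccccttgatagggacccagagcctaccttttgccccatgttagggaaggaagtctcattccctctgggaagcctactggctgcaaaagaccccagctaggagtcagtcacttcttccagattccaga
SREBF2: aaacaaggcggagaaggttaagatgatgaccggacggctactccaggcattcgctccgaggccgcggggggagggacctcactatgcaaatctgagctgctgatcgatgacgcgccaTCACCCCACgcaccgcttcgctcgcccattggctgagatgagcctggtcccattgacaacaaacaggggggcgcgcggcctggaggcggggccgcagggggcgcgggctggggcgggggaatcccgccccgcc
TXNIP: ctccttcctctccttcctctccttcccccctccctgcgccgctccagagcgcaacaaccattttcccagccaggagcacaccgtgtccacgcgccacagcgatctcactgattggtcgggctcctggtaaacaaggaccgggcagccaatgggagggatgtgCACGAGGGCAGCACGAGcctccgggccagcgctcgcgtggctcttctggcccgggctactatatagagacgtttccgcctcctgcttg

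The GGGCGG letters, the core of Sp1 sites, stood 4 times in the MLXIPL window and in a window of 9 of the 10 genes, and are common, with a match in 42.6% of all 35116 windows of the same length. The sterol element letters TCACNCCAC of SREBF2 began 133 bases before its start site and occur in 0.883% of all windows. The paired letters of TXNIP, a form of the carbohydrate response element, began 88 bases before the start site and occur in 16 windows, or 0.0456%. A single E-box, CACGTG, which is 1 form of CACGNG, lay in the windows of MLX and SCAP (6.34% of all windows). The LXR element, 2 copies of AGGTCA with 4 bases between, and the SMAD palindrome GTCTAGAC were in none of the 15 windows, against 0.0142% and 0.182% of all windows. AGGTCA alone had a match in 12.1%. The NF-Y letters CCAAT had a match in 5 of the 15 windows, among them those of SREBF2 and TXNIP. They occur in 32.0% of all windows and are not marked above. A match is a description of the letters and not a binding site.

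MLXIPL and NR1H3 fell with GDF11, and none of the other 8 genes was called. Values are variance-stabilised log2 values, on which a gene without reads has 5.52. Calls are limma results with an adjusted p under 0.05. Of all 18723 genes tested, 22.4% were called, 11.7% higher and 10.8% lower. The members had 0 higher and 2 lower of 10, a share near that of all genes. The groups did not overlap for 5 of the 10, against 40.5% of all genes. The median difference over the 10 was -0.26, and over all tested genes 0.006. The plot of values by library shows both genes that fell and the spread of the rest.

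**Figure D1:**
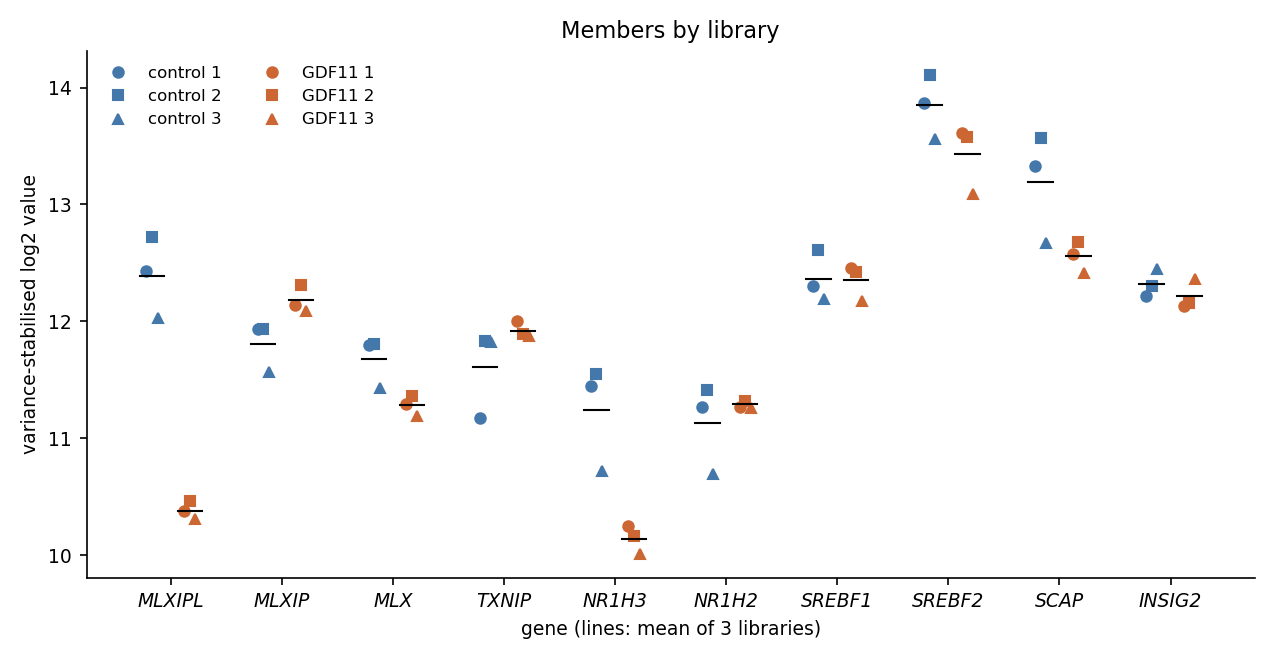
Variance-stabilised log2 value (vertical axis) of each of the 10 genes in the 3 control (blue) and 3 GDF11 (orange) libraries, with symbols for replicates 1 to 3 and lines for group means. MLXIPL and NR1H3 stand lower in all 3 GDF11 libraries, and control replicate 3 is the lowest control for 8 of the 10 genes.

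The libraries had estimated depths of 47900000 to 53400000 reads. RNA integrity numbers were 9.6 to 9.9 in the controls and 9.4 to 9.6 with GDF11, overlapping only at 9.6. The shared 9.6 was that of control replicate 3 and GDF11 replicate 1. RNA integrity and GDF11 can therefore not be fully told apart in a fit that holds both. Of 12 hepatocyte marker genes all were expressed, 7 were called lower and 0 higher, with a median difference of -0.72. Their summed normalised reads ran from 1817438 to 2520435 in the controls and from 1455114 to 1623549 with GDF11. Of 16 markers of endothelial, blood, fibroblast and stellate cells 8 passed the filter; TIE1 and PDGFRB were called higher and VWF lower, and TEK, PTPRC and CD3E were listed at 5.52 in every library. Their sums were 3923 to 4923 and 4692 to 5820. In such bulk RNA fewer cells of a kind and less RNA per cell cannot be told apart, and the part of these markers in the results below was not tested.

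MLXIPL, the gene of ChREBP (ENSG00000009950.16, chr7:73593202-73647907), changed most among the 10. Its values were 12.43, 12.72 and 12.03 in the controls and 10.38, 10.46 and 10.31 with GDF11. Even the highest GDF11 library lay far below the lowest control, and the GDF11 libraries were closely spaced. The difference was -2.01 ± 0.19 (difference ± SE, 3 against 3, adjusted p = 0.000167, limma), with a 95% interval from -2.44 to -1.58. On back-transformed normalised reads the control mean was 5393 and the GDF11 mean 1248, which is 23.1% of the control. Only 0.208% of the tested genes had a lower difference.

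NR1H3, the gene of LXR-alpha (ENSG00000025434.19, chr11:47248300-47269033), fell from 11.45, 11.55 and 10.72 to 10.25, 10.16 and 10.01. The groups did not overlap, but control replicate 3 stood closer to the GDF11 libraries than to the other controls. The difference was -1.10 ± 0.22 (adjusted p = 0.00874, limma; 95% interval -1.60 to -0.59), and the GDF11 mean was 43.4% of the control mean on back-transformed reads. When limma also fitted RNA integrity, the call ended at -0.46 (adjusted p = 0.207), whereas MLXIPL stood at -1.56 (adjusted p = 0.00280). Calls over all genes fell in that fit as well, to 1149 higher and 721 lower. Since RNA integrity ran lower with GDF11, a call that ended there cannot be assigned to RNA integrity or to GDF11. The NR1H3 call held without each single library, at -1.36 without control replicate 3 and between -1.15 and -0.94 without any other.

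NR1H2, the gene of LXR-beta (ENSG00000131408.15, chr19:50376457-50383388), did not follow NR1H3. It stood at 11.27, 11.41 and 10.69 in the controls and at 11.27, 11.32 and 11.26 with GDF11. Control replicate 3 was low, and the other controls overlapped the GDF11 libraries. The difference was 0.16 ± 0.20 (adjusted p = 0.592, limma), and its 95% interval of -0.29 to 0.61 leaves room for a modest change either way. With RNA integrity fitted it stood at 0.63 (adjusted p = 0.114, limma), outside that interval, and was not called.

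In the glucose-sensing branch MLXIP, the relative of MLXIPL, and the partner gene MLX gave differences of opposite sign, neither of them called. MLXIP, the gene of MondoA (ENSG00000175727.14, chr12:122078756-122147344), stood at 11.93, 11.93 and 11.57 in the controls and at 12.14, 12.31 and 12.09 with GDF11. Every GDF11 library was higher, yet the difference of 0.37 ± 0.16 was not called (adjusted p = 0.126, limma; 95% interval 0.01 to 0.73). It was called with quantile normalization (0.50, adjusted p = 0.0300), and stood at 0.63 without a call when RNA integrity was fitted (adjusted p = 0.0752, limma). MLX, the shared partner (ENSG00000108788.11, chr17:42567100-42573203), stood at 11.80, 11.81 and 11.43 against 11.29, 11.36 and 11.19. Every GDF11 library was lower, and the difference of -0.40 ± 0.16 was not called either (adjusted p = 0.101, limma; 95% interval -0.76 to -0.04).

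TXNIP (ENSG00000265972.6, chr1:145992435-145996579) turned on 1 library. Its controls were 11.17, 11.83 and 11.82 and its GDF11 libraries 12, 11.89 and 11.87. Control replicate 1 stood well below the rest, while the other controls lay just under the GDF11 libraries. The difference was 0.32 ± 0.20 (adjusted p = 0.277, limma; 95% interval -0.13 to 0.77), and without control replicate 1 it was 0.10 (adjusted p = 0.708). With library weights TXNIP was called higher (0.63, adjusted p = 0.00776, limma). That fit called far more genes, 4473 of all genes higher and 4554 lower.

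SREBF1 (ENSG00000072310.17, chr17:17811334-17836986), the gene of SREBP-1, had overlapping groups. The controls were 12.30, 12.61 and 12.19 and the GDF11 libraries 12.46, 12.42 and 12.17. The difference was -0.02 ± 0.17 (adjusted p = 0.958, limma), and the 95% interval of -0.39 to 0.36 excludes a change as large as that of NR1H3. With quantile normalization the sign turned (0.13). SREBF2 (ENSG00000198911.12, chr22:41833105-41907305), the gene of SREBP-2 with the sterol element letters shown above, stood at 13.87, 14.11 and 13.56 against 13.61, 13.58 and 13.09. Control replicate 3 lay among the GDF11 libraries, and GDF11 replicate 3 was the lowest of all. The difference of -0.42 ± 0.21 was not called (adjusted p = 0.170, limma; 95% interval -0.89 to 0.04).

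SCAP (ENSG00000114650.20, chr3:47413681-47477127), the escort of both SREBPs, stood at 13.33, 13.57 and 12.67 in the controls and at 12.58, 12.68 and 12.41 with GDF11. Control replicates 1 and 2 lay well above the GDF11 libraries, whereas control replicate 3 lay within them. The difference of -0.63 ± 0.23 was not called (adjusted p = 0.0802, limma; 95% interval -1.15 to -0.11). INSIG2 (ENSG00000125629.15, chr2:118088471-118110997), which retains SCAP in the endoplasmic reticulum, stood at 12.22, 12.30 and 12.45 against 12.13, 12.16 and 12.36. The groups overlapped, with a difference of -0.11 ± 0.15 (adjusted p = 0.629, limma; 95% interval -0.44 to 0.23), or 0.02 with quantile normalization. Its relative INSIG1 was listed at 5.74 in control replicate 1 and at the lowest value, 5.52, in the other 5 libraries, and was not tested; it is named after its values were seen. Hepatocyte lines usually express INSIG1, and whether the gene was silent here or its estimate failed cannot be told from the table.

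**Figure D2:**
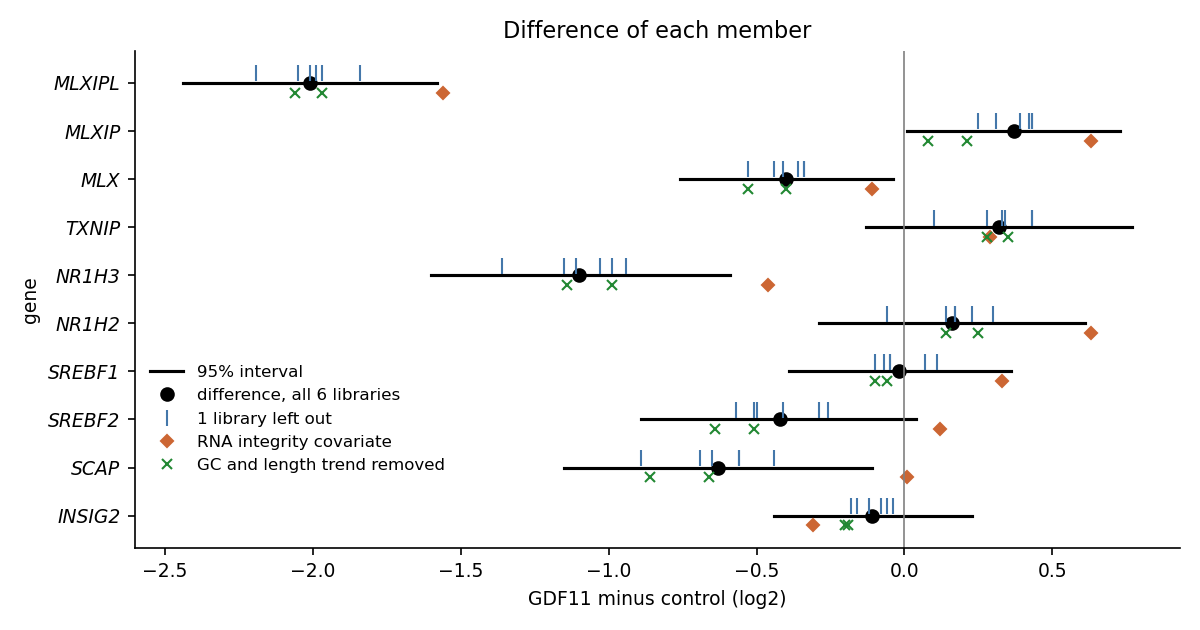
GDF11 minus control difference (log2, horizontal axis) of each of the 10 genes, with black points and lines for all 6 libraries and the 95% interval, blue ticks for fits that leave out 1 library, orange diamonds for the fit with RNA integrity, and green crosses for the 2 fits with the GC and length trend removed (with and without control replicate 3). MLXIPL lies at or below -1.56 in every fit, while SCAP, SREBF2 and SREBF1 change sign when RNA integrity is fitted.

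Control replicate 3 set several of these outcomes. It was the lowest control for 8 of the 10 genes, by 0.26 (SREBF1) to 0.78 (NR1H3 and SCAP) below the mean of the other 2 controls. The transcripts of those 8 genes hold 49.9% to 63.3% G and C. The exceptions were TXNIP (43.7%), at 0.32 above that mean, and INSIG2 (36.3%), at 0.19 above it. On a scale from 0 at the mean of control replicates 1 and 2 to 1 at the GDF11 mean, control replicate 3 stood at 0.25 for MLXIPL, 0.57 for NR1H3, 0.72 for MLX, 0.76 for SREBF2 and 0.87 for SCAP. Control replicate 3 also had an RNA integrity number of 9.6, against 9.8 and 9.9 in the other controls. Over the tested genes it correlated with the GDF11 libraries at 0.9711 to 0.9737, and the other controls did so at 0.9531 to 0.9665. Leaving it out and fitting RNA integrity both bear on this library, so they are not independent checks. GDF11 replicate 3, with an RNA integrity number of 9.4, was the lowest GDF11 library for 9 of the 10 genes. The fit without control replicate 3 still holds that GDF11 library. The parts of base composition and RNA integrity in these positions were not tested.

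**Figure D3:**
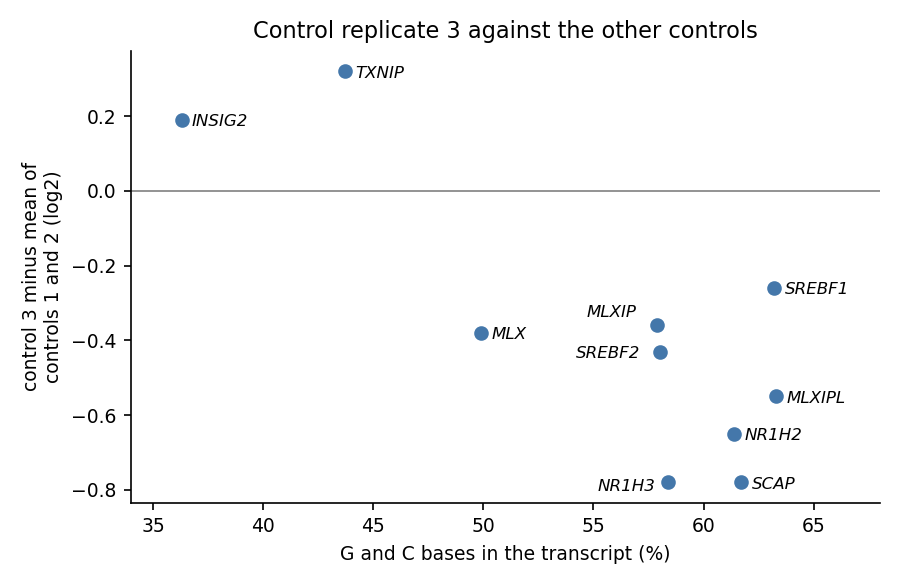
Control replicate 3 minus the mean of control replicates 1 and 2 (log2, vertical axis) against the percentage of G and C bases in the transcript (horizontal axis), 1 point for each of the 10 genes, all from the same 3 libraries. The 2 genes with the lowest percentages, INSIG2 and TXNIP, lie above 0 and the other 8 lie below.

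Without control replicate 3, MLX (-0.53, adjusted p = 0.00706), SCAP (-0.89, adjusted p = 0.00117) and SREBF2 (-0.57, adjusted p = 0.0319) were called lower as well, so that 5 of 10 were lower by limma. In that fit 3993 of all 18723 genes were lower and 3647 higher, against 2017 and 2185 with all 6 libraries. With the GC and length trend of the libraries removed and all libraries kept, 3077 of all genes were lower and 2568 higher. The same 3 members were called, at -0.40, -0.66 and -0.51 (adjusted p 0.0492, 0.0221 and 0.0477, limma). With RNA integrity fitted, their differences were -0.11 for MLX, 0.01 for SCAP and 0.12 for SREBF2 (lowest adjusted p of the 3 = 0.766). In the same fit SREBF1 stood at 0.33, TXNIP at 0.29 and INSIG2 at -0.31, none of them called. SREBF1 and NR1H2 were called in none of the 18 alternatives, nor was INSIG2.

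Related members measured in the same library were set against each other, since a shift that both share cancels. The difference NR1H3 minus NR1H2 was 0.18, 0.13 and 0.03 in the controls and -1.02, -1.16 and -1.25 with GDF11. Control replicate 3 stood beside the other controls in this measure, whose SD over the controls was 0.074, against 0.45 for NR1H3 alone. The change was -1.26, and the groups did not overlap. MLXIPL minus MLXIP was 0.50, 0.79 and 0.46 in the controls and -1.76, -1.85 and -1.78 with GDF11, a change of -2.38. SREBF1 minus SREBF2 was -1.57, -1.51 and -1.37 against -1.15, -1.16 and -0.92, a change of 0.41 toward SREBF1, also without overlap. Each of the 3 pairs had an exact permutation p of 0.1 (two-sided, 0.1 after adjustment over the 3), the smallest that 3 against 3 allows. With RNA integrity fitted, the changes were -1.09, -2.19 and 0.22.

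**Figure D4:**
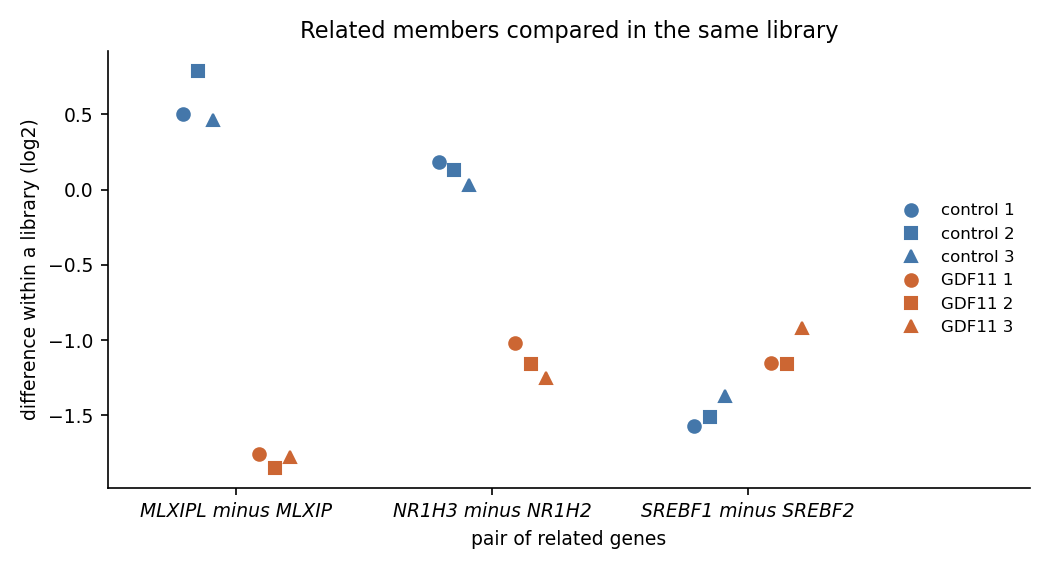
Difference between 2 related genes in the same library (log2, vertical axis) for 3 pairs, in 3 control (blue) and 3 GDF11 (orange) libraries. The 2 groups stay apart in each pair, and in each control replicate 3 is the control nearest to the GDF11 libraries. The height of a pair depends on transcript lengths, so that the change between groups is what can be read.

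Levels between genes were compared as normalised reads per kilobase of 1 transcript each. In the controls SREBF2 (2832) and SCAP (2250) were the highest of the 10, followed by MLXIPL (1658), INSIG2 (1417), MLX (1363), NR1H3 (1298), TXNIP (1069), SREBF1 (1065), NR1H2 (908) and MLXIP (418). The ranges of neighbours from SREBF2 to NR1H2 overlapped. Within each control library, however, SREBF2 exceeded SCAP, SCAP exceeded MLXIPL and SREBF1 exceeded NR1H2. From MLXIPL to SREBF1 the order of neighbours changed between control libraries and is not fixed. MLXIP stood apart at 350 to 452, below NR1H2 at 646 to 1091. With GDF11 SREBF2 (2111) and SCAP (1401) still led, and NR1H3 (563), MLXIP (541) and MLXIPL (384) were the lowest. There SREBF2 and MLXIPL stood apart from their neighbours, whereas SCAP, INSIG2 and TXNIP overlapped, as did SREBF1, MLX and NR1H2, and also NR1H3 and MLXIP. MLXIPL went from 3.60 to 4.54 times the per-kilobase level of MLXIP in the control libraries to 0.683 to 0.729 times with GDF11. NR1H3 went from 1.34 to 1.48 times that of NR1H2 to 0.520 to 0.620 times. SREBF1 stayed below SREBF2 throughout, at 0.355 to 0.408 times its level in controls and 0.473 to 0.560 times with GDF11. The length of MLXIP is that of its longest coding transcript, since none is marked as canonical, so its level is approximate.

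The genes with the profile closest to MLXIPL over the 6 libraries, by root mean square difference after centring, were EPO (0.017), which encodes erythropoietin, GPHA2 (0.036) and CPN2 (0.080). EPO fell by 1.99 and CPN2, for a carboxypeptidase N subunit made in liver, fell by 2.13. Closest to NR1H3 were SLC37A4 (0.030), the glucose-6-phosphate transporter gene, TUBA1B (0.033) and SUV39H1 (0.041). SLC37A4 and TUBA1B both fell by 1.06. TUBA1B belongs to a family of near-identical tubulin genes, so its reads can be divided among them. Likeness over 6 libraries says no more than that the values ran together.

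Around the members, 131 genes in 7 lists were examined, of which 123 were tested, and 11 were called higher and 26 lower. The counts without control replicate 3 given below come from a fit with more calls over all genes, 3647 higher and 3993 lower. Of 24 SREBP-2 target genes 12 fell, 0 rose and the other 12 had no call, with a median difference of -0.57. Lower calls made up 10.8% of all genes. EBP, a gene of cholesterol synthesis, fell by 1.05 ± 0.20 (adjusted p = 0.00627, limma). ACAT2, which joins acetyl-CoA units, fell by 0.82 ± 0.14. The number lower was 17 without control replicate 3, 6 without GDF11 replicate 1, 7 without any other single library and 3 with RNA integrity fitted. In that last fit the call of EBP ended (-0.53), and that of ACAT2 stayed (-0.72, adjusted p = 0.0328, limma).

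Of 16 SREBP-1 target genes 4 fell, 1 rose and the other 11 had no call (31.2% called against 22.4% of all genes, median -0.38). GPAM, the first enzyme of glycerolipid synthesis, rose by 1.17 ± 0.18. ACSS2, which makes acetyl-CoA from acetate, fell by 1.25 ± 0.26. PGD of the pentose phosphate pathway fell by 0.87 ± 0.21, and the fatty acid synthase gene FASN fell by 0.91 ± 0.24. ME1 and THRSP were below the filter, ME1 at 5.52 in every library, which may likewise be a failed estimate and does not show that the gene was silent. The number lower was 7 without control replicate 3. It was 2 when control replicate 1 or GDF11 replicate 2 was dropped, and 1 on dropping control replicate 2, GDF11 replicate 1 or GDF11 replicate 3. It was 9 with the GC and length trend removed and 0 with RNA integrity fitted, where ACSS2 stood at -0.51, PGD at -0.29, FASN at -0.24 and GPAM, still called, at 0.77. The FASN call ended without each single library except control replicate 3, and that of PGD without each except control replicate 3 and GDF11 replicate 2.

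Target genes of ChREBP and MondoA moved in both directions, with 8 of 17 lower, 2 higher and 7 without a call (median -0.45). The share called was 58.8%, against 22.4% of all genes and 58.3% of the hepatocyte markers. The ketohexokinase gene KHK, the entry step of fructose metabolism, fell from 13.33 ± 0.42 to 11.17 ± 0.18 (group mean ± SD, adjusted p = 0.000242, limma). TKFC, for the triokinase of the same pathway, fell by 1.84 ± 0.23 and stood at -1.18 with RNA integrity fitted, still called. MTTP, needed for very low density lipoprotein assembly, fell by 1.37 ± 0.18. KLF10, a glucose-induced factor that is also a TGF-beta early response gene, rose by 1.25 ± 0.19. The number lower was 5 without control replicate 1 and 3 with RNA integrity fitted, and the number higher was 1 without any single library other than control replicate 3, where it was 3. With RNA integrity fitted, KHK (-1.56), MTTP (-1.60) and KLF10 (0.86) stayed called as well. GPD1, named after its values were seen, was called higher in that fit (1.23, adjusted p = 0.00938, limma). Without that term it was not called (0.64).

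Genes close to TXNIP were examined by relation. Of 8 arrestin domain and thioredoxin genes 3 rose and 0 fell (37.5% called against 22.4% of all genes, median -0.20). All 3 that rose are arrestin-domain relatives of TXNIP. ARRDC3 rose by 1.06 ± 0.19, ARRDC2 by 0.82 ± 0.18 and ARRDC4, a glucose-induced gene also in the previous list, by 0.78 ± 0.21 (adjusted p = 0.0283, limma). TXNRD2, the mitochondrial thioredoxin reductase gene, was not called (-0.50 ± 0.16, adjusted p = 0.0511, limma). The call of ARRDC4 ended without each library except control replicate 3, that of ARRDC2 on dropping control replicate 1 or GDF11 replicate 2, and all 3 with RNA integrity fitted (0.59, 0.44 and 0.28 for ARRDC3, ARRDC2 and ARRDC4). Without control replicate 3, 4 genes of this list were called lower.

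LXR target genes, with 2 of 14 higher and 1 lower, had a median of 0.01 (21.4% called, near the 22.4% of all genes). ABCG8, a sterol transporter subunit gene, fell from 10.33 ± 0.14 to 9.25 ± 0.014 (group mean ± SD). MYLIP, a ubiquitin ligase gene, rose by 0.74 ± 0.20. PLTP, the phospholipid transfer protein gene, was not called (-0.73 ± 0.23, adjusted p = 0.0542, limma). The MYLIP call ended without each library except control replicate 3, leaving 1 gene higher, and 5 were lower without control replicate 3. With RNA integrity fitted, MYLIP (0.19) was not called, whereas ABCG8 was (-1.09, adjusted p = 0.0121, limma).

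Of 25 dimer partners and cofactors 3 rose and 1 fell (16.0% called against 22.4% of all genes, median 0.37). RXRA, the main RXR partner of the LXRs in liver, fell by 0.76 ± 0.19 (adjusted p = 0.0206, limma), a call that ended without each single library except control replicate 3. MXD1, a MAX-family repressor that can pair with MLX, rose by 1.06 ± 0.25, NCOA1, a nuclear receptor coactivator, by 0.87 ± 0.21, and YWHAZ, a 14-3-3 protein gene, by 0.83 ± 0.16. The counts were 10 higher and 3 lower without control replicate 3, and 1 higher on dropping control replicate 1, control replicate 2 or GDF11 replicate 3, where the calls of MXD1 and NCOA1 ended. These 4 calls ended with RNA integrity fitted (RXRA -0.29, MXD1 0.44, NCOA1 0.31, YWHAZ 0.58). In that fit 2 other genes of the list were called higher. MED15, a Mediator subunit gene named after its values were seen, was among them at 0.97 (0.48 without that term). In the SREBP processing and sterol sensing list, 1 of 20 genes rose and 0 fell (5.0% called against 22.4% of all genes, median 0.10). The gene that rose was FAF2, which acts in degradation of proteins at the endoplasmic reticulum, by 1.03 ± 0.17; its call ended with RNA integrity fitted (0.70, adjusted p = 0.0555, limma). ERLIN1 (-0.40 ± 0.15) and MBTPS1, the Golgi protease that cleaves SREBPs first (0.54 ± 0.21), were not called (adjusted p 0.0802 and 0.0995, limma). Without control replicate 3, 6 of these genes were higher and 2 lower.

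**Figure D5:**
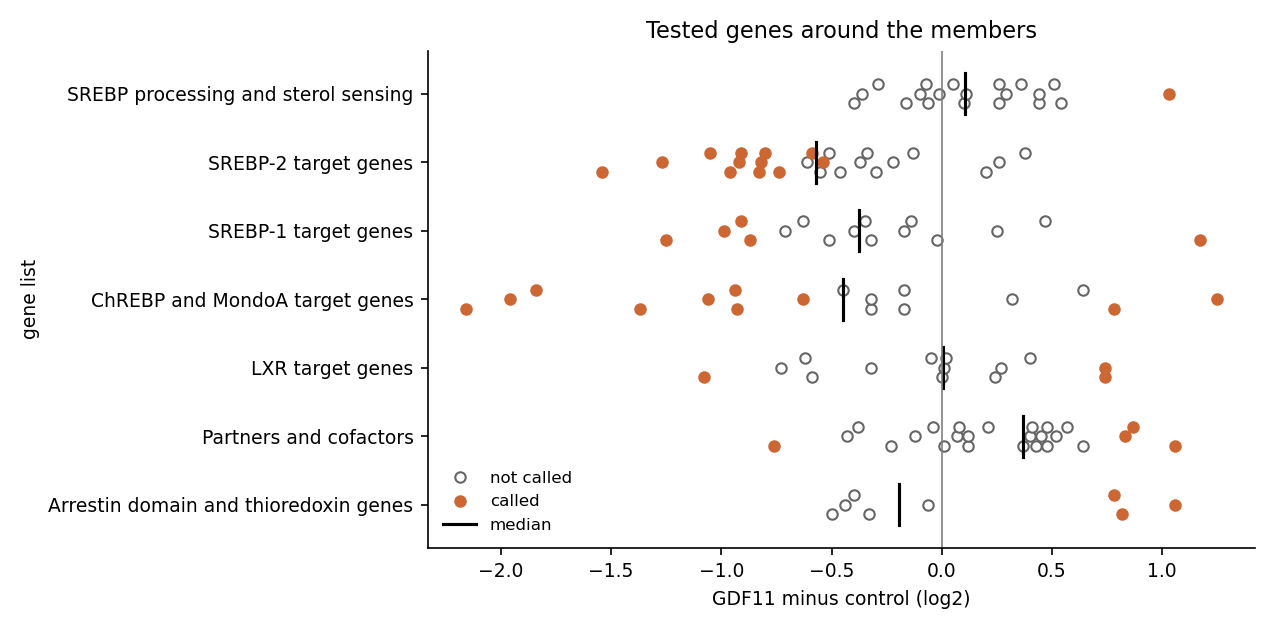
GDF11 minus control difference (log2, horizontal axis) of the tested genes of 7 lists around the members, filled where called and open where not, with a bar at each list's median. SREBP-2 targets have a median of -0.57 and no called increase, whereas calls among ChREBP and MondoA targets lie on both sides of 0.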

How the data were processed

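Total RNA of 6 HepG2 cultures was sequenced as 75-base single reads from directional libraries, per the labels' protocols. The authors deposited 1 table of variance-stabilised log2 values per Ensembl gene. The submitters' processing notes name Trimmomatic, Salmon 1.2.1, DESeq2 and GRCh38, whereas STAR 2.6 and hg19 stand in the labels' protocol text. Which of them made the table is not stated. Estimated depth was 47900000 to 53400000 reads, from the step of 1 read in the low values (73.8% to 77.7% of them whole within 0.01, too few for a count test).

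Genes with a mean at least 0.5 above the lowest value (18723) were fitted with limma 3.58.1 in R 4.3.3 (mean trend, two-sided, 2 groups, no covariate), with Benjamini-Hochberg adjustment over all of them. Intervals are 95% intervals from limma's moderated errors. P-values measure the spread between these cultures. Reads were back-transformed by inverting the variance-stabilising curve, and are normalised to a common depth. At a value of 10 a log2 change appears at 0.914 of its size, and at 12 at 0.978. Related pairs were tested by an exact permutation test over libraries. The fit was tested on simulated data without shifts between libraries. That test therefore does not bear on control replicate 3 or on RNA integrity.

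Symbols matched 96.9% of IDs, and gene positions and promoters are from RefSeq (GRCh38.p14). Transcript length and G and C content are from a GRCh37 annotation (99.1% of tested genes) and were used for properties only. The text names the 10 members, list genes among the 4 lowest p-values of each list, and the 3 closest profiles of each called member, with exceptions stated; some list genes are counted but not reported here by name. Alternatives covered filters, normalization, scale, variance prior, library weights, covariates and leaving out libraries. The members and lists were chosen with earlier results of these data known. Removal of the GC and length trend together with control replicate 3, and the RNA integrity number in the pair comparisons, were chosen after seeing the data.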

Additional observations from a re-analysis of the deposited data

How the results depend on the processing

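MLXIPL was called lower in all 18 alternatives (-2.19 to -1.56) and NR1H3 in 17, the exception being the RNA integrity number. The count of members lower was 4 with library weights, 1 with the RNA integrity number, 5 with the GC and length trend removed, 5 when control replicate 3 was left out too, and 2 to 5 when single libraries were left out. The count higher was 1 with quantile normalization (MLXIP), 1 with library weights (TXNIP) and otherwise 0. With the replicate block 5 members were lower (MLX, SCAP and SREBF2 added), 3306 of all genes lower and 3147 higher, and 21 list genes higher and 40 lower. The labels state no batch for same-numbered libraries, whose deviations correlated at -0.09, 0.38 and 0.48 for replicates 1, 2 and 3. In replicates 2 and 3 the same-numbered libraries correlated best with each other, and in replicate 1 they did not. Whether same-numbered cultures were handled together was not tested.

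Over all genes, 4473 were higher and 4554 lower with library weights, 1149 and 721 with the RNA integrity number, 3077 lower with the GC and length trend removed, and 3671 and 4484 when control replicate 3 was left out too. Leaving out single libraries gave 1397 to 3647 higher and 955 to 3993 lower. Of the list genes, 17 were higher with quantile normalization, 30 higher and 51 lower with library weights, 5 and 7 with the RNA integrity number, 18 higher with the trend removed, 25 and 52 without control replicate 3 as well, and 6 to 27 higher and 14 to 47 lower without single libraries. By list, over all alternatives, the number lower ran from 3 to 19 for SREBP-2 targets, 0 to 10 for SREBP-1 targets, 3 to 10 for ChREBP and MondoA targets and 1 to 5 for LXR targets. MLXIPL minus MLXIP changed by -2.18 with the trend removed and -2.19 with the RNA integrity number, NR1H3 minus NR1H2 by -1.09 and SREBF1 minus SREBF2 by 0.22 with that covariate. Fewer samples were fitted where a library was left out; for the other changes the cause was not tested. With 3 libraries a group precision is limited.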
